A study of Vitis vinifera with 27 samples.

Results

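Pathogenesis-related protein 1 (PR-1) genes of the chromosome 3 cluster of grapevine were followed in ripening Cabernet Sauvignon berries. The 5 genes were VIT_203s0088g00710, VIT_203s0088g00780, VIT_203s0088g00810, VIT_203s0088g00910 and VIT_203s0097g00700, out of 28940 genes in the expression table. They were chosen by their ID, because the study had picked them out on these same libraries. VIT_203s0088g00780, VIT_203s0088g00810, VIT_203s0088g00910 and VIT_203s0097g00700, called the 4 LR-V genes here, were selected on higher values after leaf removal than in control berries. VIT_203s0088g00710 was selected on a lower value after leaf moving than in control berries at E-L 37. The contrasts that chose a gene, and its steps between stages within the groups those contrasts compared, are given as a description with no test. So is LR-V against C for VIT_203s0088g00710 at E-L 37, which uses the C libraries that chose it. LM-V against C was tested for VIT_203s0088g00810, although its C libraries also served the choice, and for VIT_203s0088g00710 at the stages that did not choose it.

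Berries came from 3 vine treatments in the 2012 season. In leaf removal at véraison (LR-V), leaves 1 to 6 from the base of the fruiting shoots were cut off when the berries began to colour. In leaf moving at véraison (LM-V), the same leaves were tied aside with nylon ties and stayed on the vine, and control vines (C) were left untreated. Berries were taken at 3 stages of the Eichhorn-Lorenz scale, E-L 36, E-L 37 and E-L 38, of which E-L 38 is the harvest-ripe one. Every treatment and stage had 3 biological replicates (A, B and C), each from 15 vines, which makes 9 groups and 27 libraries of RNA from deseeded berries.

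PR-1 proteins are small secreted proteins of plants that accumulate after attack by pathogens. In Arabidopsis, PR-1 is the usual marker gene of the salicylic acid response: salicylic acid lets the coactivator NPR1 act with TGA transcription factors at the PR-1 promoter. In grapevine, several PR-1 copies lie next to each other on chromosome 3.

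Expression was measured as FPKM, fragments per unit of gene length scaled to the mapped reads of the library, so levels of different genes can be set side by side per length. The summed FPKM of a library was between 600395 and 690035. Relative depth was read from the step size of low values, but only from steps close to the smallest value of each gene. Its range of 0.931 to 1.03 of the first control library (replicate A at E-L 36) was bounded by that method and cannot show whether depth was even. Absolute depth is unknown. Libraries of a group correlated at 0.941 to 0.982 across genes. UFGT (VIT_216s0039g02230), the last enzyme of anthocyanin synthesis, and MYBA1 (VIT_202s0033g00410), its regulator, were above 0 in all 27 libraries, as the label berry requires. Transcripts of seed, although the berries had been deseeded, differed between libraries of a group, and their values are given beside the PR-1 results. These are bulk samples, in which fewer cells of a type and less RNA per cell cannot be told apart.

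The table annotated 18 genes as PR-1, of which 13 carry chromosome 3 in their ID. For all 5 members the closest protein in KEGG was that of the grape gene named PR1, with alignment scores of 353 for VIT_203s0088g00810, 285 for VIT_203s0088g00910, 279 for VIT_203s0088g00710, 270 for VIT_203s0088g00780 and 263 for VIT_203s0097g00700. VIT_203s0088g00780, VIT_203s0088g00810 and VIT_203s0097g00700 were described as basic forms of PR-1. VIT_203s0088g00710 and VIT_203s0088g00910 shared 1 closest protein in the table with the neighbours VIT_203s0088g00690 and VIT_203s0088g00700. Their sequences were not compared here. Where copies are alike, short reads may be split or shared between them, so the level of a single copy is less certain than that of the group. By protein accession, 2 of the 5 members matched a RefSeq gene, and both lie on chromosome 3 there.

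VIT_203s0088g00810 was the only member above 0 in all 27 libraries and reached the highest level of the 5. At E-L 36 it had 84.98, 8.43 and 10.62 FPKM in LR-V berries, 10.24, 4.67 and 2.54 FPKM in LM-V berries and 11.1, 4.64 and 2.42 FPKM in C berries. Only LR-V replicate A stood above the C libraries. At E-L 37 it had 4.74, 9.47 and 36 FPKM in LR-V berries, 15.56, 32.44 and 0.28 FPKM in LM-V berries and 22.36, 5.44 and 0.3 FPKM in C berries, and the 3 groups overlapped. At E-L 38 it had 153.28, 33.34 and 248.95 FPKM in LR-V berries, 2.33, 0.28 and 4.82 FPKM in LM-V berries and 1.54, 2.55 and 1.53 FPKM in C berries. Every LR-V library lay above every LM-V and C library at that stage, with a mean of 145 FPKM in LR-V berries, against 1.87 FPKM in C berries. The share of all genes whose groups lie apart in this way was not counted, here or for the genes below, so nothing is read from it. The log2(FPKM + 1) difference between LR-V and C was 1.78 at the earliest stage, 1.17 at the middle one and 5.27 at E-L 38.

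VIT_203s0088g00910 ran the same course at lower values. It had 7.1, 0 and 0.58 FPKM in LR-V berries at E-L 36, against 0.9, 0.36 and 0 FPKM in C berries. At E-L 37 it had 0, 1.12 and 3.64 FPKM in LR-V berries, against 2.36, 0 and 0 FPKM in C berries. By E-L 38 the values were 21.02, 4.32 and 29.26 FPKM in LR-V berries, against 0.18, 0 and 0 FPKM in C berries. The LR-V and C libraries overlapped at the first pair of stages and lay apart at E-L 38, where the log2 difference was 3.85.

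VIT_203s0097g00700 carries the ID of another scaffold of chromosome 3 than the other members. It had 3.88, 0 and 0.27 FPKM in LR-V berries at E-L 36, where all C libraries were listed at 0. At E-L 37 it had 0.57, 0 and 2.25 FPKM in LR-V berries, against 0.28, 0 and 0 FPKM in C berries. By E-L 38 the values were 11.29, 2.58 and 15.36 FPKM in LR-V berries, against 0.28, 0.55 and 0 FPKM in C berries. No C library reached 1 FPKM at any stage, and the log2 difference between LR-V and C at E-L 38 was 2.83.

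VIT_203s0088g00780 was the lowest of the 5. It had 2.2, 0 and 0 FPKM in LR-V berries at E-L 36, 0.27, 0 and 1.07 FPKM at E-L 37 and 4.79, 0.83 and 6.65 FPKM at E-L 38. In LM-V berries it was above 0 in 1 library, with 0.27 FPKM in replicate A at E-L 37, and in C berries in replicate A at E-L 37 and at E-L 38, again with 0.27 FPKM, the smallest value above 0 that the gene had anywhere. It passed the expression minimum of 1 FPKM in 3 libraries through LR-V berries alone, in which 4 libraries reached that level. Of its summed FPKM over the 27 libraries, 95.1% came from LR-V berries, against 90.7% for VIT_203s0097g00700, 90.6% for VIT_203s0088g00910 and 82.5% for VIT_203s0088g00810.

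**Figure D1:**
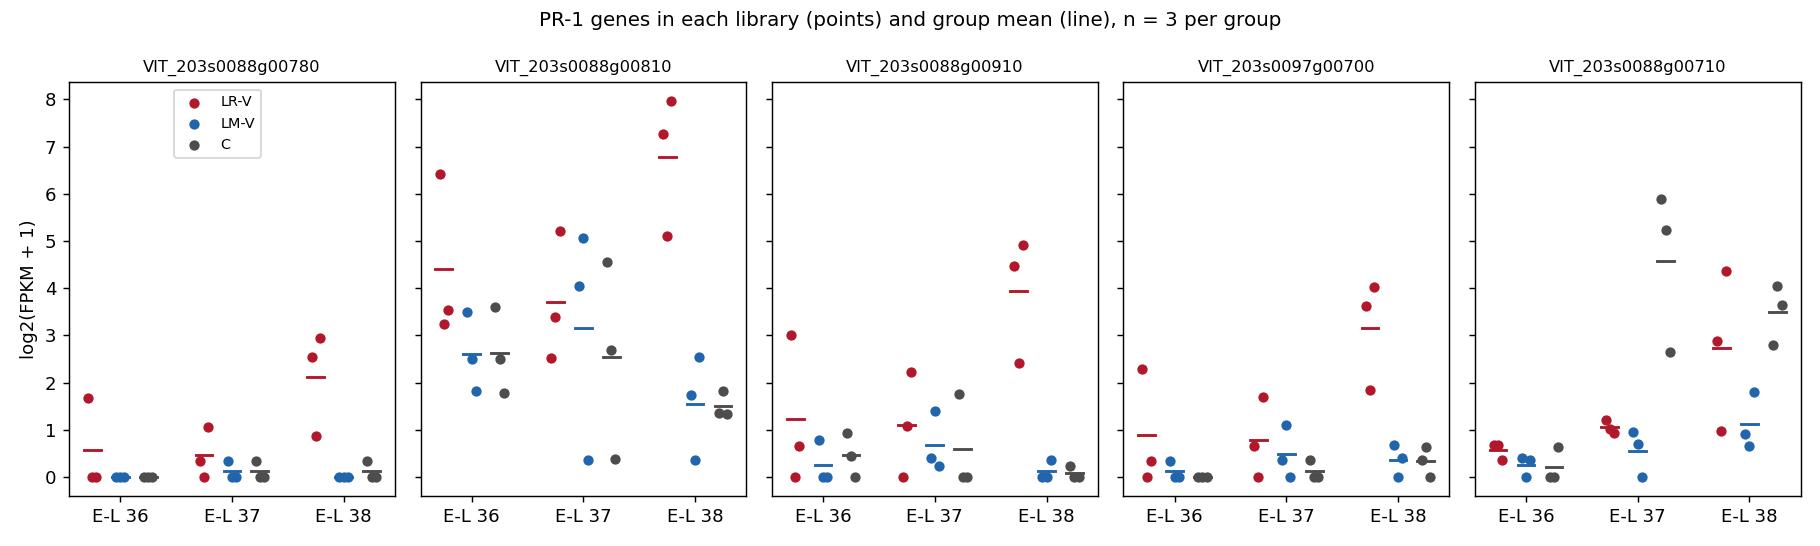
Level of each PR-1 gene in the 27 libraries, as log2(FPKM + 1), by stage and treatment; points are libraries and lines are means of 3. VIT_203s0088g00810 reached 248.95 FPKM in an LR-V library at E-L 38, while VIT_203s0088g00710 was highest in C berries at E-L 37, with 58 FPKM.

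The 4 LR-V genes shared the libraries in which they were high. For each of them the 5 highest libraries were LR-V replicate A at E-L 36, LR-V replicate C at E-L 37 and the 3 LR-V libraries at E-L 38, and these 5 libraries held between 77.9% and 93.5% of the summed FPKM of a gene. In the 9 LR-V libraries the 6 pairs among the 4 genes correlated at 0.961 to 0.990 on the log2 scale, and in the 18 LM-V and C libraries at 0.18 to 0.79. These correlations are descriptions, since the points share groups, libraries and, in part, gene sequence. Where the lower gene reached 1 FPKM, the level of VIT_203s0088g00810 was a median of 8.99 times that of VIT_203s0088g00910 (range 7.29 to 19.7, 8 libraries), 16.1 times that of VIT_203s0097g00700 (range 12.9 to 28.5, 6 libraries) and 35.5 times that of VIT_203s0088g00780 (range 32.0 to 38.6, 4 libraries).

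In the order of group means, LR-V at E-L 38 stood first for all of the 4 LR-V genes, LR-V at E-L 36 was next and LR-V at E-L 37 after it. Neighbours in that order overlapped in every case. The lead of LR-V at E-L 36 over LR-V at E-L 37 rested on replicate A, which had 84.98 FPKM of VIT_203s0088g00810 while its other replicates had 8.43 and 10.62 FPKM. The median log2 difference of the 4 genes between LR-V and C was 0.82 for berries of E-L 36, 0.59 for E-L 37 and 3.34 for E-L 38. Without LR-V replicate A the value for E-L 36 was 0.09, and without replicate B it was 1.35. For E-L 37 it was 0.13 without LR-V replicate C, 0.26 without C replicate C, 0.90 without LR-V replicate A and 0.94 without C replicate A, so the difference at these earlier stages turned on single libraries. For E-L 38 it stayed between 2.88 and 4.05 with any library of the comparison left out. Across all genes tested, LR-V against C called 5.54% for E-L 36, 5.01% for E-L 37 and 17.8% for E-L 38, and nothing is read from the members' values here because LR-V against C chose them.

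Seed transcripts were uneven across the same libraries. Seed level here is the mean log2(FPKM + 1) of the genes for a vicilin (VIT_206s0004g03260) and an albumin (VIT_219s0177g00090), both storage proteins of seeds. It was above 3 in 6 libraries. These were replicate A (3.84) of LR-V at E-L 36, replicates B (4.84) and C (3.17) of LR-V at E-L 37, replicates A (4.01) and C (3.27) of LR-V at E-L 38, and replicate B (3.29) of LM-V at E-L 37. Their summed FPKM ranged from 2.94 to 55.05 in LR-V berries and from 1.46 to 3.21 in C berries at E-L 38. Of the 5 libraries highest in the 4 LR-V genes, 4 were among these 6. LR-V replicate B at E-L 38 had a seed level of 0.99 and 33.34 FPKM of VIT_203s0088g00810, whereas LR-V replicate B at E-L 37 had the highest seed level, 4.84, and 9.47 FPKM of that gene. Without these 6 libraries, a choice made after the data were seen, the median log2 difference of the 4 genes between LR-V and C at E-L 38 was 1.92, from LR-V replicate B alone, and at E-L 36 and E-L 37 it was 0.09 and 0.11. With the seed level as a covariate it was 0.42 for E-L 36, -0.008 for E-L 37 and 2.66 for E-L 38. Over the 27 libraries, the correlation with the seed level was 0.587 for VIT_203s0088g00780, 0.639 for VIT_203s0088g00810, 0.683 for VIT_203s0088g00910 and 0.620 for VIT_203s0097g00700, and 0.165 for VIT_203s0088g00710. The part of seed RNA in the PR-1 values was not tested.

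Transcripts of green tissue moved with the treatment as well. The summed FPKM of 9 chlorophyll a-b binding protein and Rubisco small chain genes was 317.97, 157.59 and 455.34 in LR-V berries, 124.81, 135.0 and 106.11 in LM-V berries and 60.43, 54.73 and 62.13 in C berries at E-L 38. Most of each sum came from 1 gene, the Rubisco small chain gene VIT_217s0000g03690, with 291.53, 141.15 and 415.53 FPKM in LR-V berries and 54.27, 49.5 and 54.48 FPKM in C berries. All LR-V libraries lay above all C libraries in the sum, and LR-V replicate B was the lowest of its group for this list as for the 4 LR-V genes. Of the 7 genes of the list that were tested, 5 rose in LR-V against C at E-L 38 (17.8% of all genes were called), among them a Rubisco small chain gene, VIT_217s0000g03690, by 2.27 (SE 0.25, limma adjusted p = 3.69e-06). In LM-V against C at that stage 2 of the 7 rose, where 9.5% of all genes were called. At E-L 36 the sums were 457.83, 378.44 and 301.09 in LR-V berries and 207.01, 148.74 and 184.98 in C berries. LR-V replicates B and C had only 8.43 and 10.62 FPKM of VIT_203s0088g00810 at that stage. In LR-V against C, 2 of the 7 rose at E-L 36 (5.54% of all genes called) and 0 at E-L 37 (5.01%). The part of green tissue in the PR-1 values was not tested.

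**Figure D2:**
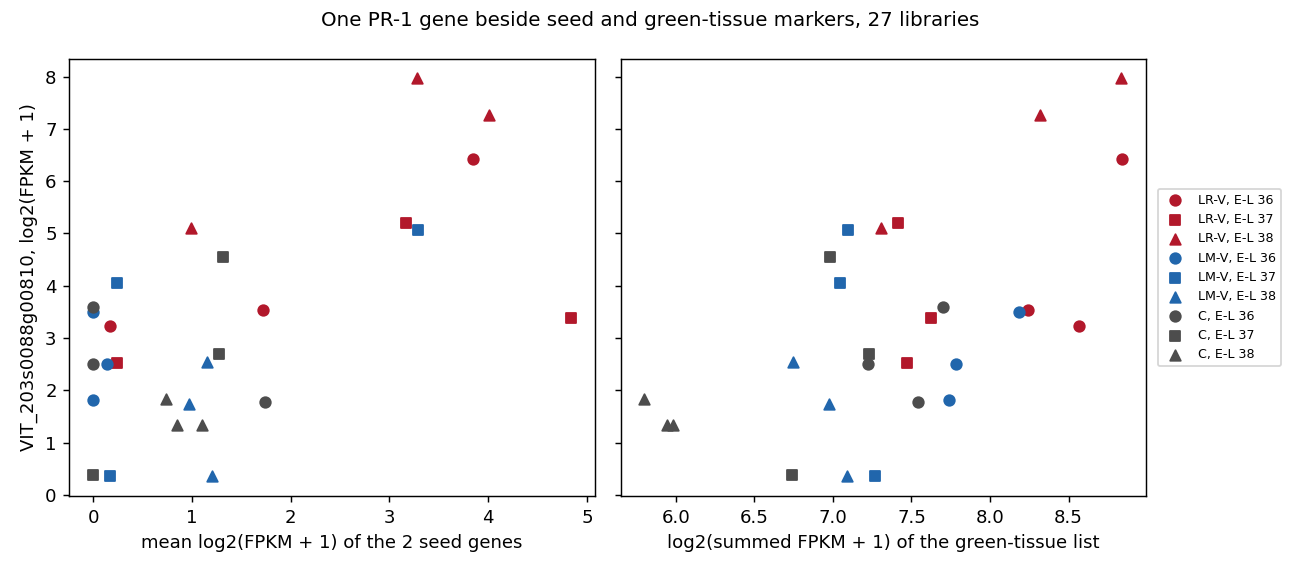
VIT_203s0088g00810, as log2(FPKM + 1), against the mean log2(FPKM + 1) of the 2 seed genes (left) and the log2 summed FPKM of the 9 green-tissue genes (right) in each of the 27 libraries, coloured by treatment with a symbol for each stage. Most of the green-tissue sum comes from VIT_217s0000g03690. LR-V replicate B at E-L 37 lies farthest right for seed, at 4.84, with 9.47 FPKM of the PR-1 gene, and LR-V replicate B at E-L 38 had 33.34 FPKM at a seed level of 0.99.

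Leaf moving exposed the clusters while the leaves stayed on the vine, so LM-V against C asks whether the 4 LR-V genes also differed without defoliation. Only VIT_203s0088g00810 reached the expression minimum of 1 FPKM in 3 libraries without the LR-V berries that chose it, in 15 of the 18 LM-V and C libraries, and only this gene was tested. VIT_203s0088g00910 reached that level in 2 of the 18, VIT_203s0097g00700 in 1 and VIT_203s0088g00780 in 0, so no test is given for them. By limma on log2(FPKM + 1) with Benjamini-Hochberg adjustment over 19761 genes, VIT_203s0088g00810 was not called at any stage and had no unadjusted p under 0.05. The C libraries used here are also those against which the gene was chosen. For E-L 36 the difference was -0.02 (95% interval -2.55 to 2.51, adjusted p = 1), for E-L 37 it was 0.62 (-1.91 to 3.15, adjusted p = 0.883) and for E-L 38 it was 0.04 (-2.49 to 2.57, adjusted p = 1.00). A difference of several-fold in either direction lies within these intervals. Their width comes from 1 spread shared by all 9 groups, including the LR-V libraries that chose the gene. At E-L 38 the SD of log2(FPKM + 1) was 1.10 in LM-V and 0.28 in C libraries. Over all genes, LM-V against C called 0.0708% for E-L 36, 0.572% for E-L 37 and 9.5% for E-L 38.

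The LM-V libraries of the 4 genes were low but not empty. At E-L 37, LM-V replicate B, which was also among the seed-rich libraries, had 32.44 FPKM of VIT_203s0088g00810, 1.65 FPKM of VIT_203s0088g00910 and 1.14 FPKM of VIT_203s0097g00700, and none of VIT_203s0088g00780. At E-L 36, LM-V berries had 0.71, 0 and 0 FPKM of VIT_203s0088g00910 and 0.27, 0 and 0 FPKM of VIT_203s0097g00700. At E-L 38, they had 0, 0 and 0.28 FPKM of VIT_203s0088g00910 and 0.6, 0 and 0.31 FPKM of VIT_203s0097g00700. For VIT_203s0088g00780 all 3 LM-V libraries were listed at 0 at E-L 36 and again at E-L 38. No test is given of whether the LM-V effect on the 4 genes differed between stages.

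**Figure D3:**
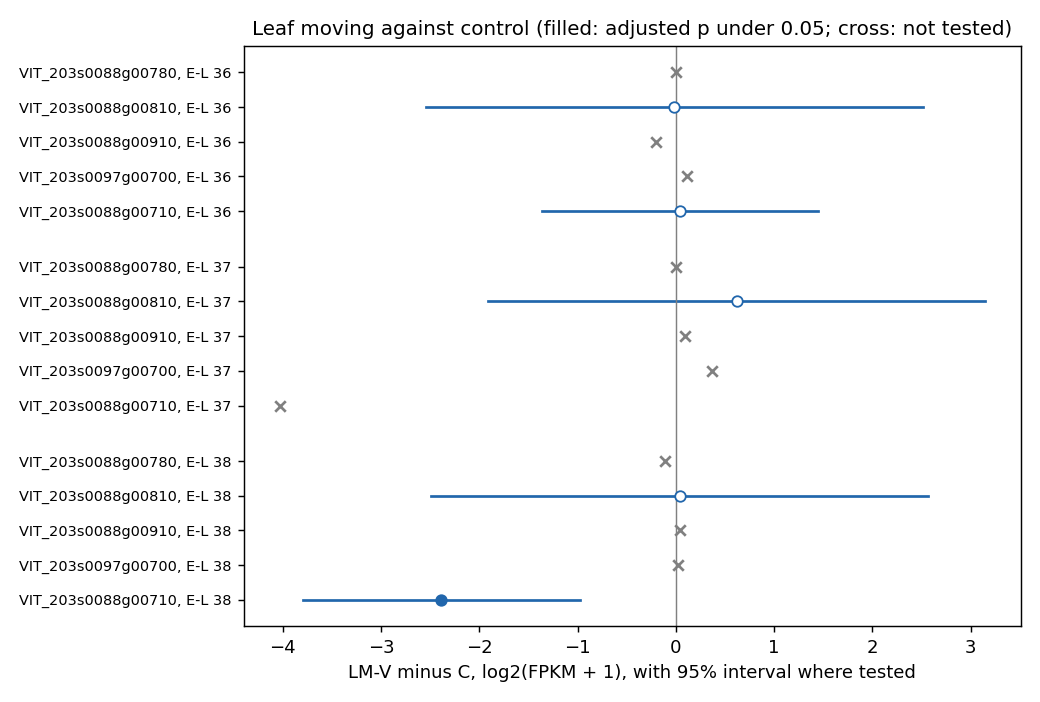
LM-V minus C on the log2(FPKM + 1) scale for each PR-1 gene and stage, with the 95% interval of the limma fit where the difference was tested. Filled points passed an adjusted p of 0.05 and crosses were not tested, and the only call was for VIT_203s0088g00710 at E-L 38, -2.38 (-3.79 to -0.98).

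Between stages, VIT_203s0088g00810 was not called in LM-V berries, in which it was the only one of the 4 LR-V genes tested. The difference was 0.55 for E-L 37 against E-L 36 (adjusted p = 0.781, 27.6% of all genes called) and -1.61 for E-L 38 against E-L 37 (SE 1.21, adjusted p = 0.321, 38.7% of all genes called). In LR-V and C berries, whose libraries chose the 4 genes, the steps are a description: VIT_203s0088g00810 averaged 145 ± 108 FPKM at E-L 38, against 16.7 ± 16.8 FPKM at E-L 37, in LR-V berries (SD, n = 3 each).

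VIT_203s0088g00710 followed another course, and 78.0% of its summed FPKM came from C berries. At E-L 36 it had 0.59, 0.59 and 0.28 FPKM in LR-V berries, 0.31, 0 and 0.29 FPKM in LM-V berries and 0, 0 and 0.55 FPKM in C berries. At E-L 37 it had 1.29, 1.03 and 0.91 FPKM in LR-V berries, 0.94, 0.62 and 0 FPKM in LM-V berries and 58, 36.43 and 5.23 FPKM in C berries. All 6 libraries of the exposed clusters lay below all C libraries at that stage. At E-L 38 it had 6.41, 0.95 and 19.47 FPKM in LR-V berries, 0.88, 0.57 and 2.47 FPKM in LM-V berries and 5.98, 15.62 and 11.58 FPKM in C berries. The LM-V libraries again lay below every C library, while LR-V berries overlapped with both.

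The log2 difference of VIT_203s0088g00710 at E-L 37, which chose the gene, was -4.03 in LM-V against C. LR-V against C used the same C libraries and gave -3.53, also a description. At E-L 38, which did not choose it, the gene fell by 2.38 in LM-V against C (SE 0.68, 95% interval -3.79 to -0.98, limma adjusted p = 0.0284), where 9.5% of all genes were called. This call was lost with a pseudocount of 0.1 (adjusted p = 0.0633) and without LM-V replicate A (0.0853), LM-V replicate B (0.115), C replicate B (0.113) or C replicate C (0.0785), with differences of -2.74 to -2.11 over all libraries left out. At E-L 36 the difference was 0.04 (-1.37 to 1.45, adjusted p = 1), with at most 0.55 FPKM in any LM-V or C library.

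In LR-V against C, VIT_203s0088g00710 did not pass the test at E-L 36, with a difference of 0.35 (-1.05 to 1.76, adjusted p = 0.835), or at E-L 38, with -0.77 (-2.17 to 0.64, adjusted p = 0.483). Within LR-V berries the difference was 0.49 for E-L 37 against E-L 36 (adjusted p = 0.626, 32.4% of all genes called) and 1.69 for E-L 38 against E-L 37 (0.28 to 3.09, adjusted p = 0.0637, 31.2% of all genes called). The latest stage was uneven, since replicates A and C had 6.41 and 19.47 FPKM and replicate B 0.95 FPKM, below the 1.29 FPKM of an LR-V library at E-L 37. Without replicate B the step passed the test (adjusted p = 0.00426), and without the seed-rich libraries, which leaves replicate B alone at E-L 38, its adjusted p was 0.940. In C berries the mean was 33.2 ± 26.5 FPKM at E-L 37 and 11.1 ± 4.84 FPKM at E-L 38, against 0.183 ± 0.318 FPKM at E-L 36 (SD, n = 3 each), a description because the E-L 37 libraries of C chose the gene.

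In the order of its group means, C at E-L 37 stood first, then C at E-L 38 and LR-V at E-L 38 with 8.94 FPKM. All other groups were between 0.183 and 1.31 FPKM, and neighbours in the order overlapped throughout. In the 9 LR-V libraries VIT_203s0088g00710 correlated with the 4 LR-V genes at 0.74 to 0.84, and in the 18 LM-V and C libraries at 0.08 to 0.37. Its highest LR-V library, replicate C at E-L 38, was also the highest library of each of the 4.

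Among the 13 PR-1 genes that are not members, 3 passed the expression minimum, 6 were above 0 in some library but reached at most 1.19 FPKM, and 4 were listed at 0 in all 27 libraries. The study's choice did not name these 3 genes, but they share the libraries and, for VIT_203s0088g00690 and VIT_203s0088g00700, the closest protein with members. VIT_203s0088g00690 and VIT_203s0088g00700 reached 1 FPKM in only 2 and 1 of the 18 LM-V and C libraries. They passed the minimum through LR-V berries, so their values are a description with no test. VIT_203s0088g00690, the neighbour of VIT_203s0088g00700 and VIT_203s0088g00710 by ID, had 3.96, 0.32 and 0.31 FPKM in LR-V berries at E-L 36, where C libraries were listed at 0. At E-L 37 it had 0.32, 2.27 and 0.32 FPKM in LR-V berries, against 1.5, 0.34 and 0 FPKM in C berries. The harvest-ripe stage gave 12.58, 1.95 and 8.54 FPKM of it in LR-V berries, 0, 0.65 and 0.35 FPKM in LM-V berries and 0.96, 1.25 and 0 FPKM in C berries. All LR-V libraries lay above all others at that stage, as for the 4 LR-V genes, but how many of all genes do so was not counted.

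The log2 difference of VIT_203s0088g00690 in LR-V against C at E-L 38 was 2.15, with 3 of 3 LR-V libraries above every C library. In LR-V berries the difference was 2.02 for E-L 38 against E-L 37. With 1 library left out at a time, the first lay between 1.69 and 2.80 and the second between 1.57 and 2.67. Without the seed-rich libraries they were 0.85 and 1.16, from LR-V replicate B alone at E-L 38 and replicate A alone at E-L 37.

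VIT_203s0088g00700 peaked at 2.21 FPKM. Its values at E-L 38 were 2.21, 1.63 and 0.45 FPKM in LR-V berries, 0, 0 and 0 FPKM in LM-V berries and 0.64, 1.25 and 0.34 FPKM in C berries. Its log2 difference in LR-V berries for E-L 38 against E-L 37 was 0.93 (0.69 to 1.27 with 1 library left out at a time). LM-V against C at E-L 38 gave -0.77, with no overlap between the libraries of the groups. VIT_203s0088g00900, annotated as PR-1 by KEGG orthology but with a benzyl alcohol O-benzoyltransferase-like closest protein, reached 2.72 FPKM and was called in no comparison with C. Of the other PR-1 genes by ID between VIT_203s0088g00690 and VIT_203s0088g00910, VIT_203s0088g00720 and VIT_203s0088g00890 were listed at 0 throughout and VIT_203s0088g00750 reached 0.58 FPKM. Genes of that run with no PR-1 annotation were also expressed: VIT_203s0088g00730, annotated as a methionine sulfoxide reductase, reached 5.17 FPKM and was above 0 in 17 libraries, and VIT_203s0088g00840 reached 6.38 FPKM and was above 0 in 14.

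**Figure D4:**
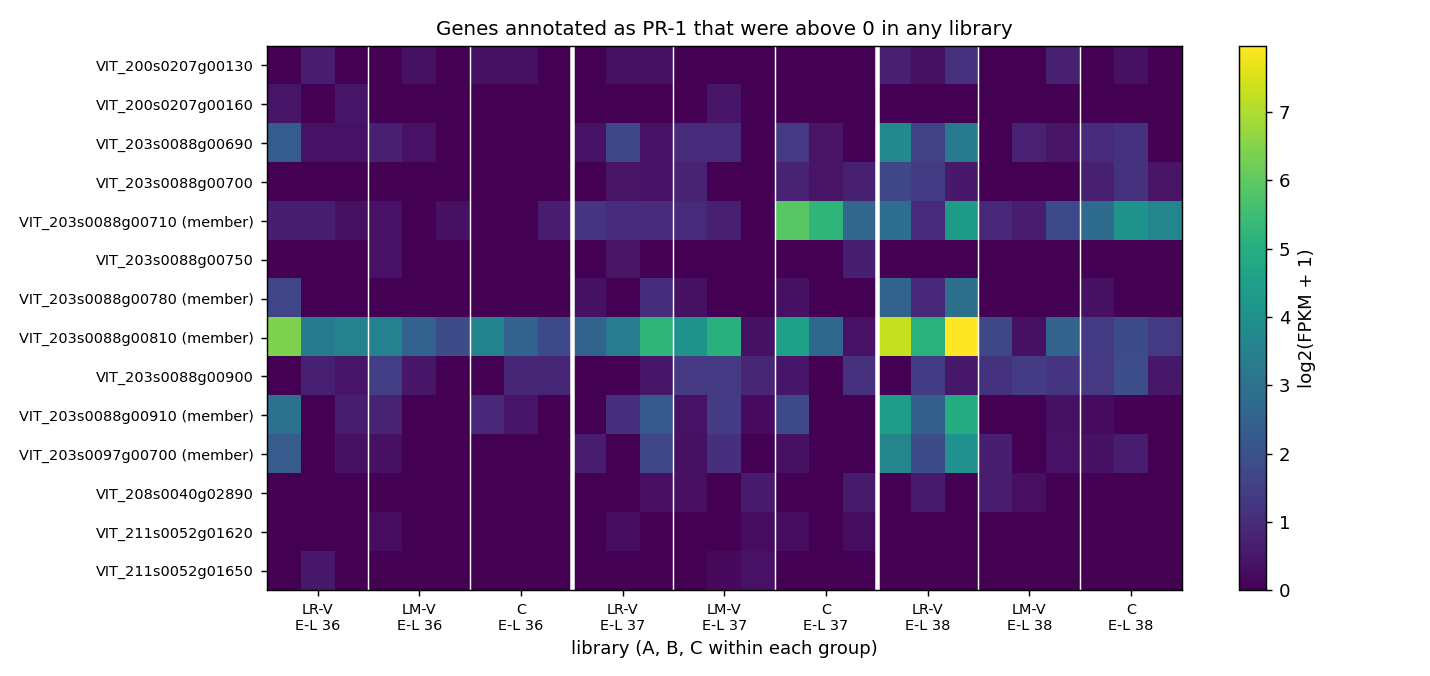
Level of the 14 genes annotated as PR-1 that were above 0 in any library, as log2(FPKM + 1), with 1 column per library in the order A, B and C within each group. The 3 LR-V columns at E-L 38 are bright for VIT_203s0088g00690, VIT_203s0088g00780, VIT_203s0088g00810, VIT_203s0088g00910 and VIT_203s0097g00700, and VIT_203s0088g00710 is brightest in C at E-L 37.

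Genes that carry the salicylic acid signal to PR-1 were looked at next. Of 3 NPR1 genes, all tested, 1 rose in LR-V against C at E-L 36, none at E-L 37 and 2 at E-L 38, and none fell, where LR-V against C called 5.54%, 5.01% and 17.8% of all genes at these stages. The median difference at E-L 38 was 0.52, against 0.02 over all genes tested. VIT_210s0042g01250 had 21.94, 21.47 and 25.66 FPKM in LR-V berries, 19.12, 20.29 and 20.02 FPKM in LM-V berries and 14.99, 16.81 and 15.47 FPKM in C berries at E-L 38. Both treatments lay above every C library. The difference was 0.52 in LR-V (SE 0.10, limma adjusted p = 0.000645, 0.0541 without the seed-rich libraries) and 0.31 in LM-V (adjusted p = 0.0408, and 0.0534 to 0.145 with any of the 6 libraries compared left out). VIT_208s0007g05740 had 1.63, 0.84 and 2.0 FPKM in LR-V berries, 1.28, 0.84 and 0.41 FPKM in LM-V berries and 0.68, 0.22 and 0.81 FPKM in C berries at E-L 38. At the earlier stages it stayed below 1 FPKM, so it passed the expression minimum through LR-V berries. Its difference of 0.66 in LR-V against C at E-L 38, 1 of the 2 counted there, is therefore a description with no test. VIT_211s0016g01990 was not called in any comparison with C.

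TGA factors bind the promoters that NPR1 acts on. The list was drawn by KEGG orthology, which does not show that each gene is a TGA factor. Of its 37 genes, 26 were tested, and in LR-V against C there were 5 that rose for E-L 36, 2 for E-L 37 and 5 for E-L 38, with none lower at any of the 3 stages. That is 19.2%, 7.69% and 19.2% of the list, against 5.54%, 5.01% and 17.8% of all genes, so the share at E-L 38 was near that of all genes. In LM-V against C none was called at E-L 36, 2 rose at E-L 37, and at E-L 38 1 rose and 1 fell, where 0.0708%, 0.572% and 9.5% of all genes were called. VIT_210s0003g01730 rose at E-L 37 by 1.00 in LR-V (adjusted p = 7.47e-05) and by 0.81 in LM-V (adjusted p = 0.00297, 0.0605 without the seed-rich libraries), and VIT_219s0014g01780 fell at E-L 38 by 1.23 in LM-V (adjusted p = 0.0024). VIT_207s0031g02670 had 8.01, 3.55 and 9.18 FPKM in LR-V berries at E-L 38, against 0.41, 0 and 0 FPKM in C berries, with no overlap. The study had named it for LR-V, and it passed the expression minimum through LR-V berries alone, with at most 0.62 FPKM in LM-V and 0.44 FPKM in C libraries. Its difference of 2.74 there, 1 of the 5 counted at E-L 38, is therefore a description with no test and no independent evidence. The study had also named VIT_208s0007g06160, which was not called in LR-V at any stage. It had 0.15, 20.36 and 6.11 FPKM in LR-V berries at E-L 37 and 19.0, 1.39 and 11.9 FPKM at E-L 38. The seed vicilin VIT_206s0004g03260 had 0.11, 47.2 and 15.48 FPKM and 51.08, 2.94 and 34.09 FPKM in the same libraries. The part of seed RNA in the values of VIT_208s0007g06160 was not tested. In LM-V against C the differences of both were between -0.31 and 0.46, and VIT_208s0007g06160 was not called there.

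Enzymes around salicylic acid itself were looked at as well. Of 8 genes annotated as isochorismate synthase, which opens a route to salicylic acid, 3 were tested, and none was called in LR-V or LM-V against C. The list was drawn by annotation words and includes entries with other leading names. Of 11 genes for salicylate O-methyltransferase, which makes the volatile methyl salicylate, 2 were tested, and both rose in LM-V against C at E-L 38 (9.5% of all genes called). VIT_204s0023g02280 had 1.06, 33.32 and 40.36 FPKM in LM-V berries at E-L 38, against 0.37, 0.23 and 0 FPKM in C berries, and rose by 3.59 (SE 0.84, adjusted p = 0.0096). Without LM-V replicate B or C its adjusted p was 0.0629 or 0.0552. At E-L 36 the gene had 4.6, 37.14 and 7 FPKM in LM-V berries and 33.72, 4.98 and 6.95 FPKM in C berries, so single libraries of both groups were high there. VIT_204s0023g02290 rose by 1.45 in LR-V (adjusted p = 0.0305, 0.592 without the seed-rich libraries) and by 1.52 in LM-V (adjusted p = 0.0377) at E-L 38. The LM-V call was lost without LM-V replicate B (0.17), LM-V replicate C (0.177) or any C library (0.0725 to 0.128). Its LR-V call was also lost without LR-V replicate C (0.212) or any C library (0.0586 to 0.106) and with the seed level as a covariate (0.0628). No gene carried EDS1 or PAD4, regulators upstream of salicylic acid, in the annotation words searched.

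Other families of pathogenesis-related proteins were set against the share of all genes called in LR-V against C, 5.54% for E-L 36, 5.01% for E-L 37 and 17.8% for E-L 38. The PR-2 list was drawn by the words glucan endo-1,3-beta-glucosidase, the enzyme name of PR-2, which do not show that a gene is a PR-2 enzyme. Of its 11 genes tested, 1 rose and 1 fell in LR-V against C at E-L 38, 18.2% of the list. VIT_209s0070g00310, annotated as glucan endo-1,3-beta-glucosidase 6-like, rose by 0.44 (adjusted p = 0.00165). VIT_217s0000g07260, annotated as glucan endo-1,3-beta-glucosidase-like protein 3, fell by 0.74 (adjusted p = 1.99e-06). Of 22 chitinase genes tested (PR-3 and related), 3 rose in LR-V at E-L 36, 1 rose and 1 fell at E-L 37 and 4 rose at E-L 38, or 13.6%, 9.09% and 18.2% of the list, and the last of these shares, like that of PR-2, was near that of all genes. VIT_205s0094g00360 rose at E-L 37 by 2.97 in LR-V (adjusted p = 4.17e-05) and by 1.93 in LM-V (adjusted p = 0.00901, 0.0975 without LM-V replicate B, 0.0555 without C replicate C and 0.0916 without the seed-rich libraries), and VIT_205s0094g00340 rose by 0.74 in LR-V at E-L 38 (adjusted p = 0.00594, 0.319 without the seed-rich libraries and 0.0512 without LR-V replicate C).

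Of 10 thaumatin or osmotin genes tested (PR-5), 1 rose in LR-V against C at E-L 36, 2 rose and 3 fell at E-L 37, and 3 rose and 1 fell at E-L 38, where LR-V called 5.54%, 5.01% and 17.8% of all genes. VIT_218s0001g14480 rose by 1.18 at E-L 36 (adjusted p = 0.00177) and VIT_204s0023g03550 by 1.31 at E-L 37 (adjusted p = 0.00082). Of 8 PR-10 genes tested, small intracellular proteins of the birch allergen family, none was called in LR-V at E-L 36, 3 fell at E-L 37 and 3 rose at E-L 38, 37.5% of the list at each of these later stages. Their median difference was -1.50 at E-L 37 and 1.12 at E-L 38, against -0.09 and 0.02 over all genes tested.

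One PR-10 gene, VIT_205s0077g01580, had 141.23, 246.76 and 145.6 FPKM in LR-V berries, 297.18, 250.76 and 221.2 FPKM in LM-V berries and 612.15, 620.89 and 562.12 FPKM in C berries at E-L 37. Both exposed groups lay below every C library at that stage, as for VIT_203s0088g00710. The gene fell by 1.79 in LR-V (SE 0.34, adjusted p = 0.00382), while -1.23 in LM-V missed the threshold (adjusted p = 0.12). At E-L 38 it rose by 1.04 in LR-V (adjusted p = 0.0366), a call lost without LR-V replicate A (0.119), LR-V replicate C (0.222), C replicate A (0.133) or C replicate B (0.0891), with the seed level as a covariate (0.13) and without the seed-rich libraries (0.912). VIT_205s0077g01670 rose by 1.63 (adjusted p = 0.000464). Of 53 WRKY factors tested, regulators of many defence genes, 6 rose and 1 fell in LR-V at E-L 36, 7 rose and 6 fell at E-L 37, and 7 rose and 7 fell at E-L 38, or 13.2%, 24.5% and 26.4% of the list, against 5.54%, 5.01% and 17.8% of all genes. VIT_207s0005g01520 rose by 1.34 in LR-V at E-L 38 (adjusted p = 2.42e-05), and VIT_207s0005g01710 fell at that stage by 0.75 in LM-V (adjusted p = 2.53e-06). In LM-V against C, none of the tested genes of the PR-2, PR-3, PR-5, PR-10 and WRKY lists was called at E-L 36 (0.0708% of all genes were). At E-L 37 (0.572% of all genes) 1 PR-3 gene rose and 1 fell, 2 WRKY genes rose and none of the other lists was called. At E-L 38 (9.5% of all genes) 1 gene of the PR-2 list fell, 1 PR-5 gene rose and 1 fell, 1 WRKY gene rose and 6 fell, and no PR-3 or PR-10 gene was called.

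The genes with the pattern most like each member were taken by Pearson correlation on log2(FPKM + 1) over the 27 libraries, the 5 highest for each. For the 4 LR-V genes these were 11 distinct genes with correlations of 0.867 to 0.959, and VIT_212s0059g01190, annotated as a homeobox protein SBH1-like, was the highest for all 4. It had 6.55, 1.13 and 8.65 FPKM in LR-V berries, 0.2, 0 and 0.16 FPKM in LM-V berries and 0.19, 0.47 and 0.17 FPKM in C berries at E-L 38, and LR-V berries had 3.35, 0.56 and 0.27 FPKM at E-L 36. It correlated at 0.702 with the seed level. VIT_217s0000g01230, VIT_217s0000g05000 and VIT_201s0011g00100, which belong to the MADS-box family of transcription factors, and VIT_218s0001g11470, annotated as a cytochrome P450 82A3-like, were also among the 11. For VIT_203s0088g00710 the correlations were lower, 0.808 to 0.865, and the named genes were a primary amine oxidase (VIT_205s0020g03280), a gene annotated as a tRNA methyltransferase (VIT_201s0011g00520) and a stilbene synthase (VIT_216s0100g01100), the enzyme that makes resveratrol. The stilbene synthase had 0.34, 0.33 and 0.88 FPKM in LR-V berries, 0.36, 0 and 0.64 FPKM in LM-V berries and 7.89, 4.35 and 0.32 FPKM in C berries at E-L 37, so replicates A and B stood above replicate C in C berries, as for VIT_203s0088g00710. Likeness of pattern is all that these correlations describe.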

How the data were processed

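RNA of deseeded berries (50 berries per replicate) was sequenced by the authors as 50-bp single reads and aligned with Bowtie to the V2 genome of grapevine with up to 2 mismatches (Bowtie2 2.2.5 in the submitters' processing notes). The deposited values are FPKM per gene and library, rounded by the authors to 2 decimals, from a program not named in the labels or methods. Read counts and absolute depth are unknown here, so no counting interval is given. All 27 libraries were placed in 9 groups by their titles.

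The 19761 of 28940 genes that reached FPKM 1 in 3 or more libraries were fitted on log2(FPKM + 1) with limma 3.58.1 (statmod 1.5.0, R 4.3.3) as 9 group means with robust empirical Bayes and an intensity trend. Tests were two-sided, with Benjamini-Hochberg adjustment over all tested genes and a threshold of 0.05, and "called" means past it. Differences on this scale understate the change of low genes. The script was tested on simulated data. The fit replaces the NOISeq rule of the authors, which was not run here.

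The members and gene lists were chosen with earlier results of these data known. Members are given no test in the contrasts that chose them, in steps within C or in differences between stage effects. The 4 LR-V genes are given none in steps within LR-V berries, and VIT_203s0088g00710 none in steps within LM-V berries. The 3 members that reach the minimum only through LR-V berries are given none at all, which is stricter than first planned. The same holds for VIT_203s0088g00690, VIT_203s0088g00700, VIT_207s0031g02670 and VIT_208s0007g05740. Counts of the lists still include genes that passed the minimum through LR-V berries. Named genes of a list are those with the smallest adjusted p in LR-V or LM-V against C, up to 3 for salicylic acid lists and 2 for others. Seed genes were found by the words vicilin, 2S albumin, legumin and oleosin, and 2 genes matched. No sequence or coordinate was used here, since the RefSeq gene table (assembly of another build) served only for names and chromosomes.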

Additional observations from a re-analysis of the deposited data

How the results depend on the processing

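Values near 0.27 FPKM, the smallest above 0 for VIT_203s0088g00780, limit what these libraries resolve, and groups hold 3 libraries. The counts of members called, the median differences of the 4 LR-V genes and the calls of the named genes were recomputed under 8 other settings and with libraries left out in turn, while the counts of the lists, the correlations and the shares were not. With a pseudocount of 0.1, the number of members called in LM-V against C at E-L 38 was 0 where it had been 1, and the median log2 difference of the 4 LR-V genes between LR-V and C was 1.55 for E-L 37 and 5.28 for E-L 38. That median was -0.008 for E-L 37 with the seed level as a covariate, and 1.92 for E-L 38 without the seed-rich libraries, a setting added after the data were seen. The smaller pseudocount weights low values more by its construction, and otherwise the cause was not tested. With libraries left out, the count of members called ranged from 0 to 1 in LM-V against C at E-L 38 and from 0 to 1 in LR-V berries for E-L 38 against E-L 37, and was 0 in the other comparisons in which members were tested. The median difference ranged from 0.09 to 1.35 for E-L 36, from 0.13 to 0.94 for E-L 37 and from 2.88 to 4.05 for E-L 38. Of the named genes' values under the other settings, 280 were unchanged, 39 kept direction only, 1 moved by more than the replicate SD and none reversed. Unchanged means the same direction and side of the threshold. For the described values of VIT_203s0088g00710 it means a move smaller than the replicate SD. The 1 that moved is VIT_203s0088g00710 in C berries for E-L 37 against E-L 36 (6.91 with the pseudocount of 0.1 and 4.37 with 1). With libraries left out, 187 were unchanged and 53 kept direction only. These counts include values of VIT_203s0088g00690, VIT_203s0088g00700, VIT_207s0031g02670 and VIT_208s0007g05740, which are descriptions. In fits of the compared groups alone, which estimate the spread from fewer libraries, adjusted p at E-L 38 was 0.0782 for VIT_204s0023g02280 (LM-V), 0.0739 (LR-V) and 0.138 (LM-V) for VIT_204s0023g02290, and 0.162 for VIT_205s0077g01580 (LR-V). It was 0.0663 for VIT_210s0042g01250 (LM-V) and 0.0584 for VIT_219s0014g01780 (LM-V). At E-L 37 it was 0.157 for VIT_205s0094g00360 (LM-V) and 0.149 for VIT_210s0003g01730 (LM-V).

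The replicate letters were used as a block in a further fit. Libraries with the same letter did not deviate together: in none of the 12 comparisons were all pair correlations above 0.1 (range -0.464 to 0.277), and vines were randomized, so the letters do not pair the libraries. Under the block, VIT_203s0088g00710 in LM-V against C at E-L 38 kept -2.38 (limma adjusted p = 0.0399), 1 member was called there and 0 in the other comparisons in which members were tested, as without it. Among the named genes, VIT_210s0042g01250 in LM-V against C at E-L 38 lost its call (adjusted p = 0.0541).

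Scaling by median of ratios moved the median of all genes by more than 0.1 on the log2 scale for E-L 37 against E-L 36, to 0.0078 (against 0.195) in C berries and to 0 (against 0.126) in LM-V berries, and changed no count of members called.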
